A study of Homo sapiens with 2 samples.

Results

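Imprinted genes were followed in liver progenitors made from human embryonic stem cells. Of 35 listed imprinted genes, 34 were found in the deposited table through their Ensembl identifiers and GENCODE symbols, out of 57158 genes in all. KLF14 was not matched and has no value here. The 34 comprise 30 coding genes and 4 noncoding RNAs in 17 chromosomal domains. The cells are the line CyT49, at definitive endoderm, the layer that gives rise to the gut and its glands, on day 2. Suspension culture with BMP4 at 50 ng/ml, FGF2 at 10 ng/ml and FBS at 0.2% followed for 6 days, per the labels, up to day 8. BMP4 and FGF2 are growth factors that direct endoderm to a liver fate. The series holds 2 libraries of this 1 group, from 1 cell line. Without a control or another stage, only levels can be described, and no change was tested. Whether they stem from separate cultures is not given.

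Imprinted genes are expressed mainly or only from the allele of 1 parent. The choice is set by DNA methylation laid down in egg or sperm at imprinting control regions, and whole domains of neighbouring genes answer to 1 such region. Many paternally expressed members promote growth before birth, and many maternally expressed members restrain it; in liver several are high in the fetus and fall after birth. The RPKM values used here (reads scaled to gene length and sequencing depth) add both alleles together, so the parental allele named for a gene is textbook background and was not measured.

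Values are read against some facts of the whole table. Every value under 0.5 RPKM is listed as 0.1, so such a gene is given as under 0.5 RPKM and not as absent; on a gene of 2000 bp, 0.5 RPKM stood for about 25.2 reads in library 1. Depth, worked back from single-exon genes, was 25183050 reads for library 1 and 25264675 for library 2. The variance between them was 1.05 times that of counting alone in 1013 such genes, so they count as 1 sample. Both values are given, and their gap is technical error. All 10 liver progenitor markers reached 10 RPKM, led by APOA1 at 2188, FGB at 868, TTR at 776 and AFP at 706 RPKM, and all 7 pluripotency markers were under 0.5 RPKM. Of 11 trophoblast markers 3 reached 1 RPKM (CGA at 136, GATA3 at 10.3 and HLA-G at 2.27) and the other 8 were under 0.5. Of 10 mesenchyme and stellate markers 5 did, among them VIM at 95.1, PDGFRA at 18.2, COL1A1 at 8.29 and LUM at 3.27, and 3 of 8 neural markers did, TUBB3 at 39.6, NES at 15.7 and DCX at 1.58 RPKM. The lists summed to 146 and 152 RPKM for trophoblast, 127 and 128 for mesenchyme and 57.3 and 57.5 for neural markers in libraries 1 and 2. Most of the trophoblast sum was CGA, most of the mesenchyme sum VIM, and most of the neural sum TUBB3 and NES. In bulk RNA, fewer cells of a type and less RNA per cell cannot be told apart, and the part of other cells in the levels below was not tested.

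Of the 34 imprinted genes, 27 reached 1 RPKM in both libraries, 15 reached 10 RPKM and 3 reached 100 RPKM; 26.3% of all genes in the table reached 1 RPKM. Of the 30 coding members, 24 (80.0%) were at 1 RPKM or more, whereas the share over the 19344 protein-coding genes was 59.8%. The same 24 were at 0.5 RPKM or more (65.1% over protein-coding genes), 15 at 5 RPKM (35.4%) and 13 at 10 RPKM (20.2%). Among the 4 noncoding members 3 reached 1 RPKM, beside 5.43% of all lncRNA genes, and 2 reached 10 RPKM, beside 0.474%. The median was 5.82 RPKM for all 34 members and for the coding ones alone, against 2.42 RPKM for all protein-coding genes. The list holds well-known genes picked with earlier results of these data in view, so these shares are a description. Ranks within each class were spread widely: DLK1 ranked 46 among protein-coding genes and H19 ranked 3 among 12036 lncRNA genes, while RTL1, PEG3, ZIM2, MKRN3, PLAGL1 and DIRAS3 were under 0.5 RPKM in both libraries, as were 33.8% of protein-coding genes. All 6 of these are paternally expressed genes. Of the 18 members expressed from the paternal allele 11 (61.1%) reached 1 RPKM, with a median of 3.17 RPKM. All 11 members expressed from the maternal allele did, with a median of 4.67 RPKM. Among coding members alone, 11 of 17 paternal ones (64.7%) and all 8 maternal ones reached 1 RPKM, with medians of 3.80 and 4.63 RPKM. The paternal share was thus near the 59.8% over all protein-coding genes. The maternal group counts IGF2R and SLC22A3, whose imprinting is best known from the mouse, and UBE3A, which is imprinted in neurons.

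**Figure D1:**
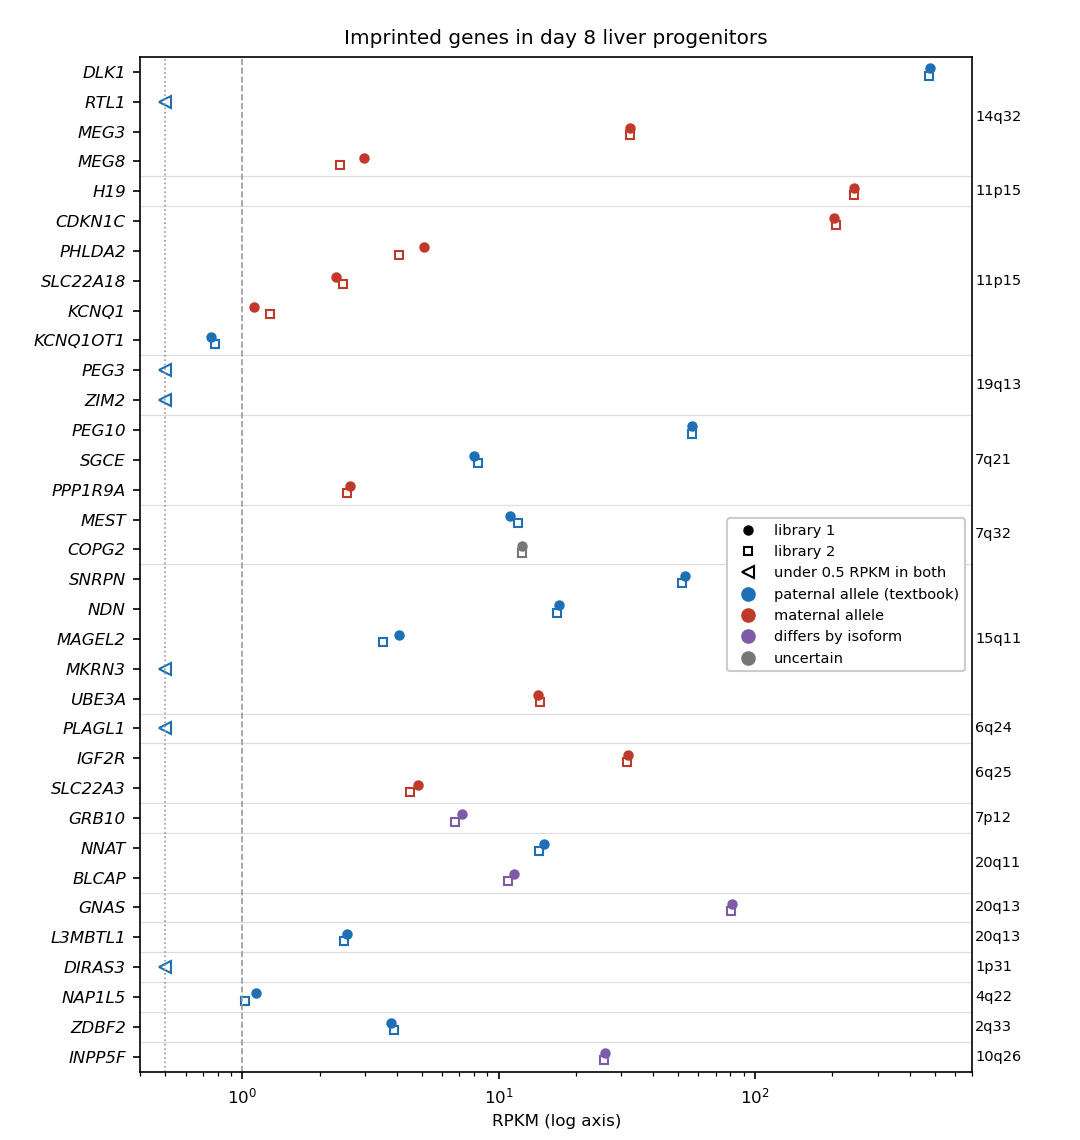
RPKM (log axis) of each imprinted gene in library 1 (filled circles) and library 2 (open squares), grouped by chromosomal domain and coloured by the parental allele known from textbooks; arrowheads mark genes under 0.5 RPKM in both libraries, the dotted line 0.5 RPKM and the dashed line 1 RPKM. DLK1, H19 and CDKN1C stand above 100 RPKM, and 6 paternally expressed genes sit at the left edge.

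On chromosome 14q32, the paternally expressed coding genes DLK1 and RTL1 lie beside the maternally expressed noncoding RNAs MEG3 and MEG8. DLK1, a membrane protein with EGF repeats that marks hepatoblasts, had 479 RPKM in library 1 and 476 RPKM in library 2. RTL1, a retrotransposon-derived protein needed for the fetal vessels of the mouse placenta, was under 0.5 RPKM in both. MEG3 had 32.3 and 32.5 RPKM, and MEG8, the next noncoding unit downstream, had 2.97 and 2.41 RPKM. The domain was therefore uneven on both sides: DLK1 stood at least 955-fold above RTL1 against the 0.5 RPKM limit, and 14.7-fold above MEG3, while MEG3 stood 12.1-fold above MEG8. On the log2(RPKM + 1) scale the ratio of DLK1 to MEG3 was 3.84 ± 0.01 and that of MEG8 to MEG3 was -3.18 ± 0.16 (SD between the 2 libraries, which are 1 sample). MEG9, a further noncoding unit of the domain, had 1.36 and 1.13 RPKM, and DIO3, the deiodinase gene at its far end, 4.65 and 4.35 RPKM. The nearest coding gene outside the members, BEGAIN, was under 0.5 RPKM. DLK1 is on chromosome 14 from 101192042 to 101204561 and MEG3 from 101245747 to 101327368 (GRCh37, plus strand). RTL1 lies on the opposite strand to MEG8, inside whose annotated span it begins; the table does not state whether strand was used in counting.

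MEG3 and MEG8 are also carriers of small RNAs. GENCODE places 2 miRNA genes within MEG3, 15 miRNA genes and 49 snoRNA genes within MEG8, 23 miRNA genes within MEG9, and 5 miRNA genes within RTL1 but on its opposite strand. Not one of these was listed at 0.5 RPKM or more in either library. The libraries were made from poly(A) RNA and so a processed small RNA is not measured by them. The mature sequences of 4 of these miRNAs and of miR-335, which lies in an intron of MEST, are shown because their genes lie within the spans of listed members. They are from RefSeq, 5′ to 3′, with the seed (bases 2 to 8) in capitals. MIR433, MIR127 and MIR136 face RTL1, which their products match perfectly because they are read from the other strand, and MIR770 lies in MEG3. MIR433, MIR127 and MIR136 were placed within neither MEG3 nor MEG8, and which RNA carries them was not determined. No pair of the 5 shares a seed.
hsa-miR-770-5p: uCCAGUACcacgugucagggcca
hsa-miR-433-3p: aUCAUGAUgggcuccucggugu
hsa-miR-127-3p: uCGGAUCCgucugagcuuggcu
hsa-miR-136-5p: aCUCCAUUuguuuugaugaugga
hsa-miR-335-5p: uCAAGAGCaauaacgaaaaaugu

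Chromosome 11p15 holds 2 neighbouring imprinted domains, and each had 1 abundant member. H19, a maternally expressed noncoding RNA that is abundant in fetal liver and restrains growth in the mouse, had 243 RPKM in library 1 and 242 RPKM in library 2. The nearest coding gene on one side, MRPL23, a mitochondrial ribosomal protein gene, had 13.2 and 12.7 RPKM. On the other side lies IGF2, the growth factor gene that shares the control region of H19, at 131 and 132 RPKM. H19 lies on chromosome 11 from 2016396 to 2025782 (GRCh37, minus strand). In the other domain CDKN1C, the cyclin-dependent kinase inhibitor p57, had 202 and 206 RPKM. The level of H19 was 1.19-fold that of CDKN1C.

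The other members of the CDKN1C domain were far below CDKN1C in RPKM. Among protein-coding genes PHLDA2 stood at percentile 62.2, SLC22A18 at 49.8 and KCNQ1 at 41.3. Among lncRNA genes KCNQ1OT1 stood at percentile 92.7. PHLDA2, a pleckstrin homology protein that restrains placental growth in the mouse, had 5.12 and 4.06 RPKM. SLC22A18, a membrane transporter of the solute carrier 22 family, had 2.33 and 2.47 RPKM. KCNQ1, a potassium channel subunit, had 1.11 and 1.29 RPKM. KCNQ1OT1, the paternally expressed antisense RNA that silences the domain in cis, had 0.755 and 0.778 RPKM, between 0.5 and 1 RPKM. CDKN1C thus stood 44.4-fold above PHLDA2 and 266-fold above KCNQ1OT1. Between KCNQ1 and KCNQ1OT1, which overlap on opposite strands, the log2 ratio of RPKM + 1 was 0.31 ± 0.07. KCNQ1OT1 is long and mostly unspliced, and RPKM divides by its annotated length. Among non-members of the domain, NAP1L4 beside PHLDA2 had 23.0 and 22.5 RPKM, whereas TRPM5, KCNQ1DN, ASCL2 and TSPAN32 were under 0.5 RPKM. On the same side as TRPM5, CD81 had 31.1 and 30.5 RPKM and TSSC4 had 8.46 and 7.27 RPKM.

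**Figure D2:**
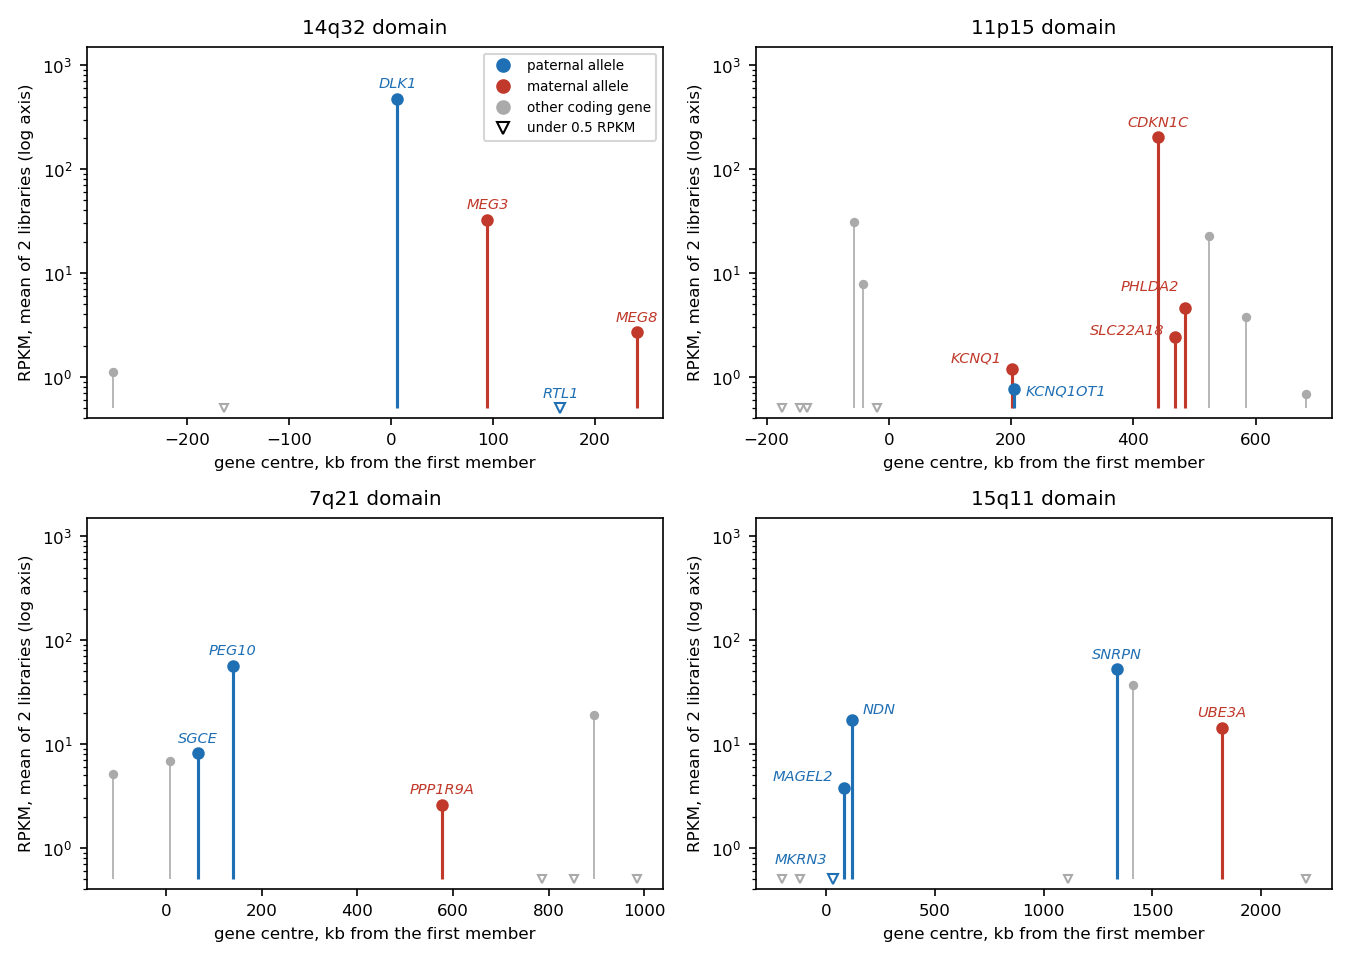
Mean RPKM of 2 libraries (log axis) against the distance of each gene's centre from the first member, in kb, for 4 domains with 3 or more members; coloured stems are imprinted members, grey stems the other protein-coding genes within 250 kb, and open triangles genes under 0.5 RPKM. The highest gene drawn in each panel is a member: DLK1, CDKN1C, PEG10 and SNRPN, the last close to an overlapping coding gene at 36.9 RPKM.

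Windows before the RefSeq starts of the 2 abundant maternal noncoding RNAs differed in sequence. The 250 bases before the start of each are shown, 5′ to 3′ in the direction of transcription, with each CpG, the dinucleotide that carries DNA methylation, in capitals. They are from RefSeq (GRCh38.p14). H19 has 4 CpG in this window and MEG3 has 13, beside a median of 11 over all 35116 promoters. The MEG3 window holds TATAAA near its end, as do 10.7% of all promoters on either strand, and TGACGTCA, the element bound by cAMP-response factors, as do 1.65%. Its 3 listed start sites overlap and all hold both. The H19 window holds neither. Which start sites these cells used was not measured, so the windows need not be those behind the levels above.
H19, chr11:2001267-2001516, minus strand: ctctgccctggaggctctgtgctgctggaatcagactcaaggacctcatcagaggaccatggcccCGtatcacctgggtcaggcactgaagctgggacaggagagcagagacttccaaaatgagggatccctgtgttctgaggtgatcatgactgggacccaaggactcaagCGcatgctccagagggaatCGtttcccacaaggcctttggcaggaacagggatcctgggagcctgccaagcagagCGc
MEG3, chr14:100825858-100826107, plus strand: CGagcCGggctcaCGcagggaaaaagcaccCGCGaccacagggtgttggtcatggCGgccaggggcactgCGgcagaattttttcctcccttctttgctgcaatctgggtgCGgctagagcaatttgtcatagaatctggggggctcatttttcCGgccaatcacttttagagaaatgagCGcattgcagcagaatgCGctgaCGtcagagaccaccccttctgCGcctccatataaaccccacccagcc

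On 15q11, the Prader-Willi region, a bicistronic transcript leads a domain of paternally expressed genes. SNRPN, which encodes the spliceosomal protein SmN, had 53.0 RPKM in library 1 and 51.8 RPKM in library 2. NDN (necdin, a growth-restraining MAGE protein) had 17.1 and 16.8 RPKM. MAGEL2, its MAGE relative that assists a ubiquitin ligase in endosomal sorting, had 4.08 and 3.52 RPKM. MKRN3, a ring finger protein whose loss in people brings early puberty, was under 0.5 RPKM in both libraries. SNRPN stood 3.09-fold above NDN, and NDN 4.46-fold above MAGEL2. UBE3A, the Angelman ubiquitin ligase, had 14.2 and 14.4 RPKM; outside neurons it is expressed from both alleles. SNHG14, the long host RNA that runs on from SNRPN across UBE3A on the other strand, had 5.35 and 5.38 RPKM. It spans 71 annotated snoRNA genes, none of which reached 1 RPKM in both libraries. NPAP1 and ATP10A of the same region were under 0.5 RPKM. A coding gene without a symbol in the annotation used, at 37.4 and 36.5 RPKM, overlaps SNRPN on the same strand. The imprinted gene SNURF was not matched by symbol, and whether this entry is SNURF is not given. On the opposite strand, SNRPN is overlapped by the processed pseudogenes RPL5P1, at 47.6 and 50.0 RPKM, and RPS27P2, at 3.01 and 2.37 RPKM. A pseudogene at 3.95 and 3.61 RPKM overlaps MAGEL2. Reads may be shared within each overlapping pair.

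The neighbours NDN, MAGEL2 and MKRN3 stood at 17.0, 3.80 and under 0.5 RPKM, and their promoters are shown for that reason, together with that of DIRAS3, another member under 0.5 RPKM. Capitals again mark CpG in the 250 bases before the RefSeq start (GRCh38.p14). NDN has 30 CpG and a GC content of 73.2%, MAGEL2 8 and 57.2%, MKRN3 10 and 54.8%, and DIRAS3 17 and 58.0%. CpG number thus did not follow level across these 4, which were picked by level. Over all member windows the median was 16 CpG for members at 1 RPKM or more. For members under 0.5 RPKM it was 7, from 8 windows of 4 genes, and most of these windows belong to PLAGL1 alone. The GC box GGGCGG is in the windows of NDN and MAGEL2 and in neither of the others. Beyond these 4 it is also in windows of PLAGL1, a member under 0.5 RPKM, and is missing from that of H19.
NDN, chr15:23687306-23687555, minus strand: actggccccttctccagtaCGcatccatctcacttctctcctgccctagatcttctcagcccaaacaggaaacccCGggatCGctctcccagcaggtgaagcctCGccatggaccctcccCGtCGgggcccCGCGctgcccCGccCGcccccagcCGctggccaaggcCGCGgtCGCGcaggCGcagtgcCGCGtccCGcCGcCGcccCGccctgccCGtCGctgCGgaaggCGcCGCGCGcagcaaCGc
MAGEL2, chr15:23647868-23648117, minus strand: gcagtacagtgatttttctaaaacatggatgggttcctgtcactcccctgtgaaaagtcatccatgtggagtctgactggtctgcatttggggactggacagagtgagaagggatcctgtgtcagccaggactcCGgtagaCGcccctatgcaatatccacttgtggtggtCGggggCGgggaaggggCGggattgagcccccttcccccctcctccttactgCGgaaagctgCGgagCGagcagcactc
MKRN3, chr15:23565424-23565673, plus strand: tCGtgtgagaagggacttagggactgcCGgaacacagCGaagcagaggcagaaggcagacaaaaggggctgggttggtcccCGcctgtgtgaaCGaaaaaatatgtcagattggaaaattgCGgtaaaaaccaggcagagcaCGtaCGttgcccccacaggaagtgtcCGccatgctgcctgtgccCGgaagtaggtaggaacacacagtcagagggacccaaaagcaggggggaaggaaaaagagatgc
DIRAS3, chr1:68050628-68050877, minus strand: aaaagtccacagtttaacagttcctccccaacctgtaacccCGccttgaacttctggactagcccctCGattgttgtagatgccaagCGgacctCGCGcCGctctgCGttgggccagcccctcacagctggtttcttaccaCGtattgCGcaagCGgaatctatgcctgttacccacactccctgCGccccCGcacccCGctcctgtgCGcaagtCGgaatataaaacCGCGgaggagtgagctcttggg

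Promoter entries were matched for 22 of the 35 listed genes, KLF14 among them, with 51 start sites in all. DLK1, MEG8, CDKN1C, PHLDA2, SLC22A18, KCNQ1, KCNQ1OT1, PEG3, ZIM2, PEG10, SGCE, SLC22A3 and NNAT had none. The median window held 16 CpG in members, against 11 in all promoters, and ranged from 1 for start sites of PLAGL1 and SNRPN to 42 for one of ZDBF2. TGCCGC is the hexamer that the imprint-keeping protein ZFP57 binds when methylated. It was found on either strand in 16 of the 51 windows (31.4%), against 12.7% of all promoters. Those windows belong to 12 of the 22 genes. No share by gene was counted over all promoters, and a gene with more start sites has more windows that can match. GGGCGG was in 43.1% of member windows, against 42.6% of all. Start sites of 1 gene overlap and share their sequence, TGCCGC itself contains a CpG, and a match is not a bound site.

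In the 7q21 domain PEG10 and SGCE start from 1 shared stretch in opposite directions, and their levels were unequal. PEG10, a retrotransposon-derived protein that the mouse placenta needs, had 56.5 RPKM in library 1 and 56.8 RPKM in library 2. SGCE, epsilon-sarcoglycan, whose paternal loss causes myoclonus-dystonia, had 7.98 and 8.29 RPKM, so PEG10 was 6.96-fold higher. PPP1R9A, the actin-binding neurabin, had 2.63 and 2.55 RPKM. Beyond these, CASD1 overlaps SGCE on the other strand at 7.22 and 6.44 RPKM, the paraoxonase gene PON2 had 19.1 and 18.9 RPKM, and PON1 was under 0.5 RPKM. PEG10 lies on chromosome 7 from 94285637 to 94299007 (GRCh37, plus strand).

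On 7q32, MEST and COPG2 are annotated end to end on opposite strands and stood at nearly the same level. MEST, an enzyme-like protein of mesoderm and many fetal tissues, had 11.02 and 11.89 RPKM, and COPG2, a subunit of the COPI vesicle coat, had 12.3 and 12.3 RPKM. Their log2 ratio of -0.09 ± 0.07 was near the gap between libraries. In the 20q11 domain NNAT (neuronatin, a small membrane proteolipid) lies in an intron of BLCAP, and they had 15.0 and 14.4 RPKM for NNAT and 11.5 and 10.9 RPKM for BLCAP, a ratio of 1.32. Reads of such overlapping genes cannot be told apart where strand is not used in counting.

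The insulin-like growth factor brake of 6q25 was well above its neighbour. IGF2R, the receptor that carries IGF2 and mannose 6-phosphate enzymes to lysosomes, had 31.7 RPKM in library 1 and 31.6 RPKM in library 2. SLC22A3, an organic cation transporter, had 4.83 and 4.52 RPKM, so IGF2R was 6.78-fold higher. SLC22A2, which lies between them, and the antisense RNA AIRN, which silences this domain in the mouse, were under 0.5 RPKM. IGF2R lies on chromosome 6 from 160390114 to 160534539 (GRCh37, plus strand).

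**Figure D3:**
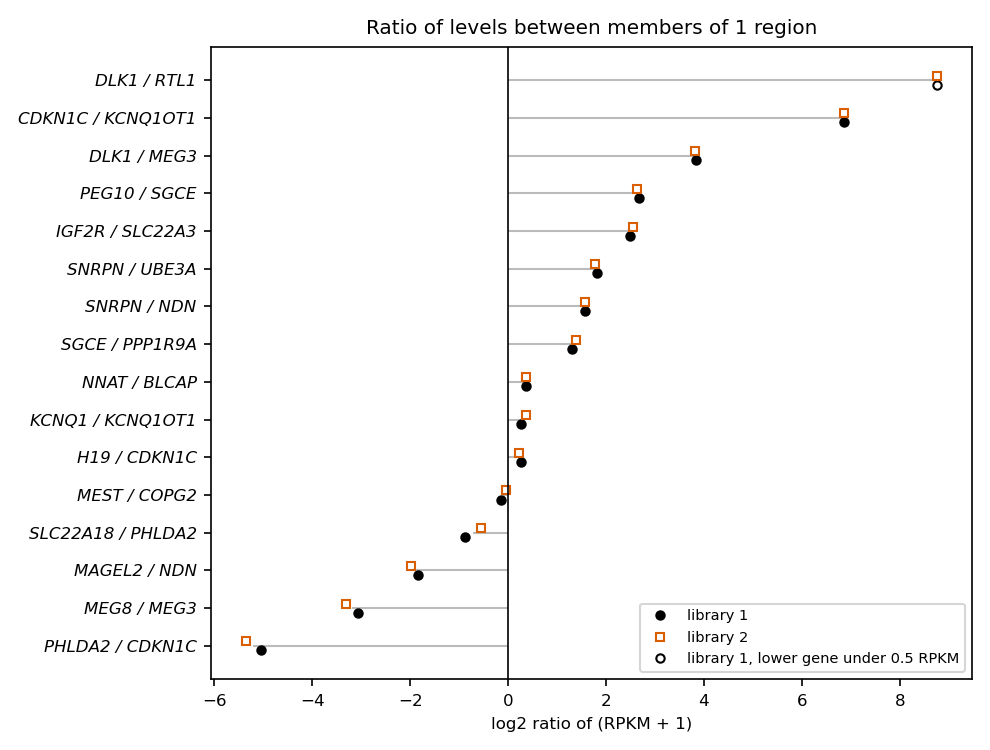
Log2 ratio of RPKM + 1 between 16 pairs of imprinted genes of 1 region, in library 1 (filled circles) and library 2 (open squares); the open circle marks the ratio in library 1 where RTL1 was under 0.5 RPKM. The libraries lie close together beside the range of ratios, from -5.20 for PHLDA2 over CDKN1C to 8.76 for DLK1 over RTL1.

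The remaining members sit alone in their domains. GNAS, the stimulatory G protein alpha subunit with several promoters of different imprint, had 81.2 RPKM in library 1 and 80.5 RPKM in library 2, and its antisense RNA GNAS-AS1 had 0.706 and 0.968 RPKM. INPP5F, a phosphoinositide phosphatase with an imprinted short isoform in brain, had 25.97 and 25.75 RPKM. GRB10, an adaptor that restrains insulin and IGF receptors, had 7.18 and 6.75 RPKM. These values add all isoforms, so imprinted and unimprinted transcripts are not separated. ZDBF2, a zinc finger gene, had 3.80 and 3.90 RPKM. L3MBTL1, a chromatin-compacting MBT protein, had 2.566 and 2.496 RPKM. NAP1L5, a retrogene of the nucleosome assembly family, had 1.13 and 1.02 RPKM, and HERC3, in whose intron it lies, had 1.01 and 0.973 RPKM.

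Under 0.5 RPKM were the growth-restraining zinc finger gene PLAGL1 on 6q24, whose gain of expression causes transient neonatal diabetes, the Ras-like DIRAS3 on 1p31, and the 19q13 pair PEG3 and ZIM2, zinc finger genes that share their first exons. Their flanking coding genes varied. Of those around PLAGL1, ZC2HC1B was also under 0.5 RPKM, while SF3B5 on the other side had 58.2 and 56.3 RPKM. Around DIRAS3, GNG12 had 3.12 and 3.23 RPKM and WLS 7.25 and 7.46 RPKM. ZNF835, beside ZIM2, had 1.55 and 1.60 RPKM. The noncoding MIMT1 and the coding USP29 and ZIM3 of the 19q13 domain were also under 0.5 RPKM. ZNF264, further along 19q13, had 2.81 and 2.84 RPKM. Of the flanking genes of other domains, MAS1 beside IGF2R, GOLGA6L2 beside MKRN3 and CMKLR2 beside ZDBF2 were under 0.5 RPKM, and those not named above had means from 1.04 RPKM for SGK2 to 40.4 RPKM for SRSF6, both beside L3MBTL1. Over all domains, 102 other protein-coding genes lie within 250 kb of a member, and 60 of them (58.8%) were at 1 RPKM or more, close to the share over all coding genes.

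Relatives of the members give a scale for the levels, though NAP1L4 and SLC22A2 among them are themselves listed here as further imprinted genes. For 17 members, 1 or 2 relatives were chosen by family after the members' values were seen, and the member exceeded its highest relative in 6. CDKN1C had 204 RPKM, against 7.54 for CDKN1B and 2.77 for CDKN1A, the other inhibitors of its family. DLK1 had 477 RPKM, and DLK2 was under 0.5. GNAS had 80.9 RPKM, against 1.51 for GNAL, and UBE3A 14.3, against 4.42 for UBE3B. The reverse order held for 11 members: SNRPN had 52.4 RPKM, against 77.0 for SNRPB, which encodes a near-identical spliceosomal protein, so reads of the pair may be exchanged. NAP1L5 had 1.08 RPKM, against 70.1 for NAP1L1, and COPG2 12.3, against 44.8 for COPG1. Where PLAGL1, MKRN3 and DIRAS3 were under 0.5 RPKM, PLAGL2 had 10.4, MKRN1 11.6 and DIRAS1 4.57 RPKM.

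**Figure D4:**
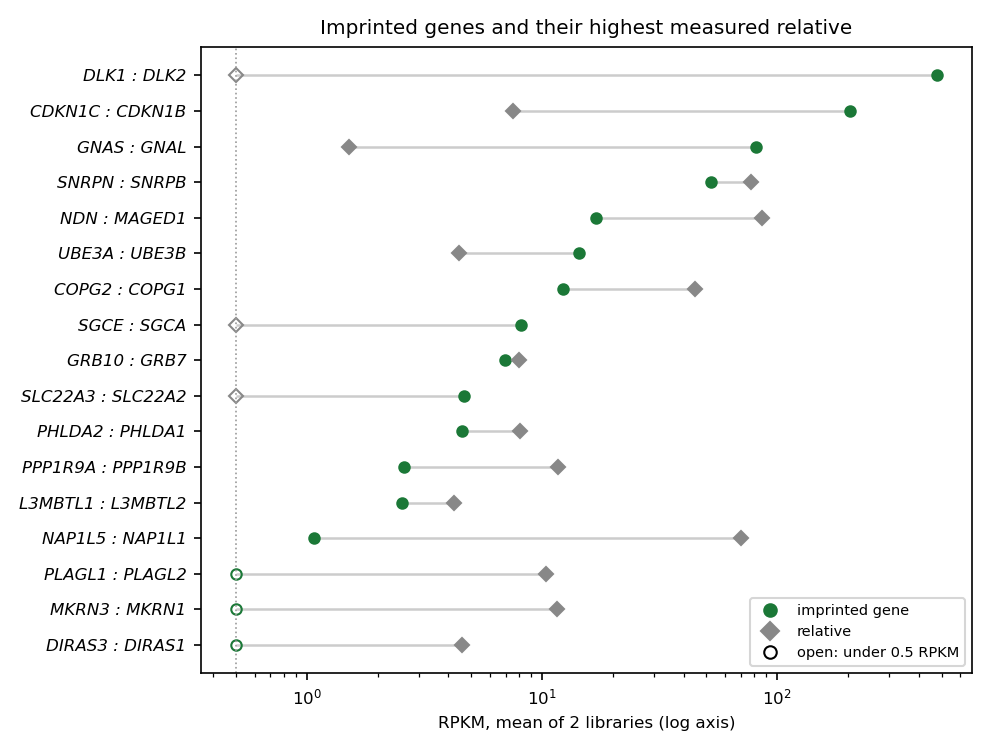
Mean RPKM of 2 libraries (log axis) of 17 imprinted genes (circles) and the highest of their measured relatives (diamonds); open symbols are under 0.5 RPKM and are drawn at 0.5. DLK1, CDKN1C and GNAS lie far to the right of their relatives, and NAP1L5, MKRN3 and PLAGL1 far to the left.

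Agreement between the libraries was close for most members. At 50 to 500 RPKM the log2 ratio of library 2 to library 1 ran from -0.03 to 0.03 in the 6 members, and at 10 to 50 RPKM from -0.08 to 0.11 in 9 members, inside the central 95% of protein-coding genes at those levels. Of 8 members at 2 to 5 RPKM, PHLDA2 at -0.33 and MEG8 at -0.31 lay outside the band of -0.22 to 0.23. At its annotated length of 920 bp PHLDA2 rests on about 119 and 94 reads, a gap of 1.67 times the counting SD, and MAGEL2 on about 443 and 384 reads, a gap of 2.10 times. The ratios involving PHLDA2, MEG8 and MAGEL2 are therefore less precise than those of the abundant members.

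Of 56 further imprinted genes, listed with earlier results known, 50 were matched. Of these, 21 (42.0%) reached 1 RPKM and 22 were under 0.5 RPKM. They mix coding genes, lncRNAs and a pseudogene. The share at 1 RPKM was 59.8% over all protein-coding genes and 5.43% over all lncRNA genes. Many genes of this list are imprinted in few tissues or chiefly in the mouse. The highest were the signal peptide peptidase HM13 at 29.3 RPKM, the histone chaperone NAP1L4 at 22.8, PON2 at 19.02, NLRP2 at 18.9, the acetyltransferase NAA60 at 17.8, ZNF542P at 8.96, the decarboxylase DDC at 6.30 and SNHG14 at 5.37 RPKM. The median of the 50 was 0.873 RPKM, against 5.82 for the members, 2.42 for all protein-coding genes and under 0.5 for all lncRNA genes. Of 20 factors that set or keep imprints, 18 were matched and 13 (72.2%) reached 1 RPKM, beside 59.8% of protein-coding genes. UHRF1 and PADI6 were not matched and have no value here. TRIM28, the corepressor that imprint-binding zinc fingers recruit, had 139 and 137 RPKM. CBX5 had 27.4, EHMT2 24.3, the insulator protein CTCF 19.4, the maintenance methyltransferase DNMT1 11.9, SETDB1 8.03 and SMCHD1 7.06 RPKM. ZFP57 was under 0.5 RPKM in both libraries, while ZNF445, the other zinc finger known to guard imprints, had 8.24 and 8.17 RPKM. Germline and maternal-effect factors were mixed: CTCFL, NLRP5 and KHDC3L were under 0.5 RPKM as well, NLRP7 had 1.59 and 1.70 RPKM, and DPPA3 had 0.914 and 1.14 RPKM.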

How the data were processed

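Poly(A) RNA of 2 libraries was sequenced after dUTP strand marking, per the labels' protocols. The deposited table gives RPKM per Ensembl gene, which the authors scaled to gene length and read number; every value under 0.5 is listed as 0.1. Per the submitters' processing notes, tools included STAR 2.3.0e, Cufflinks 2.2.0 and FastQC 0.10.1, with hg19 as genome, and the series text names Sailfish; which tool gave the values is not given in the sources used here. Identifiers were joined, without version, to GENCODE release 44 on GRCh37 (95.2% matched). Members, lists and pairs were chosen with earlier results of these data known. Detection means 1 RPKM or more in both libraries. Ratios use log2(RPKM + 1). Read numbers come from single-exon genes, of which 83.4% under 500 reads were whole within 0.02 in each library; this step was tested on simulated data. Members gave no whole reads, so no count model was used. Fits were made with Python 3.11.15, pandas 2.3.3 and numpy 2.4.6. All listed members are named; of other lists up to 8 highest, of marker lists up to 4, and the nearest flanking coding genes. Genes named outside these rules, such as MEG9 and DIO3, were picked with their values in view. Some genes beside or related to members are not reported here. Alternatives were the detection limit, the pseudocount, the value under the limit, overlapping genes and leaving out each library.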

Additional observations from a re-analysis of the deposited data

How the results depend on the processing

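The count of 27 members at 1 RPKM stayed at 27 without replicate 1, without replicate 2 and with identifiers summed, and was 28 at 0.5 RPKM. It was 17 at 5 RPKM, and 16 when only the 21 members that overlap no other detected gene were counted; both follow from their construction. The median of 5.82 RPKM ran from 5.63 to 6.15 when 1 library was left out. With a pseudocount of 0.1, and with none and 0.5 RPKM for values under the limit, the log2 ratios kept their sign but moved by more than the SD between libraries in 13 of 16 pairs. In that order they were DLK1 over MEG3 3.88 and 3.88, DLK1 over RTL1 11.22 and 9.90, MEG8 over MEG3 -3.55 and -3.60, CDKN1C over KCNQ1OT1 7.88 and 8.06, PHLDA2 over CDKN1C -5.45 and -5.48, KCNQ1 over KCNQ1OT1 0.58 and 0.64. They were also PEG10 over SGCE 2.78 and 2.80, SGCE over PPP1R9A 1.61 and 1.65, SNRPN over NDN 1.62 and 1.63, SNRPN over UBE3A 1.86 and 1.87, MAGEL2 over NDN -2.13 and -2.16, IGF2R over SLC22A3 2.74 and 2.76, NNAT over BLCAP 0.40 and 0.40. The bound of DLK1 over RTL1 depends on the value set for RTL1. The median log2(RPKM + 1) of 2.04 for paternally expressed members was 1.99 to 2.05 with 1 library left out and 1.68 with a pseudocount of 0.1, and that of maternally expressed members was 2.504, with 2.46 to 2.61 and 2.25. No paired analysis was possible because the series holds 1 group. The cut at 0.5 RPKM limits what can be said of the 6 members under it. KCNQ1OT1, KCNQ1 and NAP1L5 lay near 1 RPKM, so whether they count as detected depends on the limit chosen. At its annotated length NAP1L5 rests on about 55 and 50 reads.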
